A study of Mus musculus with 12 samples.

Results

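Potassium channel genes, whose mouse symbols start with Kcn, were followed through ATAC-seq peak lists of 2 mouse tumour cell lines. ATAC-seq marks open chromatin by inserting sequencing adapters into accessible DNA. The members were all protein-coding genes of the GENCODE annotation of mm10 with such a symbol, 94 of 21938 coding genes. The lines were 4T1, a mammary carcinoma line, and B16F10, a melanoma line, each with 3 control and 3 treated libraries. Treated 4T1 cells had received 1 µM and treated B16F10 cells 0.1 µM DAC for 48 h. The label of the control libraries gives no agent, and dead cells were taken out before the assay, so that live cells alone were measured. DAC is decitabine, a cytidine analogue that is built into replicating DNA, traps DNA methyltransferases and so lowers DNA methylation. Dose and line changed together, so that a difference between the responses of the lines cannot be told apart from a difference in dose. Each tumour type is represented by a single line, and no label says that the libraries of a group came from separate cultures. The design text names 2 types of sequencing instrument without saying which libraries ran on each, and the part of the instrument in the results was not tested.

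Potassium channels let potassium leave or enter the cell and set its resting voltage and the shape of electrical signals. Voltage-gated channels (here the Kcna, Kcnb, Kcnc, Kcnd, Kcnf, Kcng, Kcnh, Kcnq, Kcns and Kcnv symbols) open when the membrane depolarises. Inward rectifiers (Kcnj) pass current better into the cell, two-pore-domain channels (Kcnk) give a background leak, and a group opened by internal calcium, sodium or pH (Kcnma, Kcnn, Kcnt, Kcnu) answers to signals inside the cell. Auxiliary genes (Kcnab, Kcne, Kcnip, Kcnmb and Kcnrg) encode partner subunits or regulators without a pore of their own. By symbol, 40 members were voltage-gated, 17 auxiliary, 15 inward rectifiers, 14 two-pore and 8 ligand-activated. Many of these genes act in nerve, muscle or heart, and several have promoters rich in CpG. A CpG is a C followed by a G on the same strand, and DNA methylation marks its C.

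A promoter was the 5′ end of the gene plus and minus 1000 bp, and it was called in a library when a deposited peak of that library overlapped it by at least 1 bp. A gene was called in DAC libraries alone when 3 of 3 treated and 0 of 3 control libraries of a line had a promoter peak, and in control libraries alone for the reverse. The strength of a peak is given by its fold enrichment, the authors' ratio of its summit to local background. A second measure is its percentile, the rank of its −log10 q-value among all peaks of its own library. Both describe a peak within its own list only. CpG density is the number of CpG per 100 bp of the promoter, and CpG quintiles are 5 equal groups of all coding promoters by that density, from the lowest, 1, to the highest, 5. No member had the 5′ end of another coding gene in its promoter window. Unless another start is named, open or without a peak refers to this window alone, and other annotated starts of a gene may differ.

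Stretches of 160 bp from 5 promoters show the kinds of sequence that the results turn on. They were read from GRCm38, the assembly that mm10 names, on the strand of the gene, and hold no annotated exon. Capitals mark every CpG. The first 2 end 1 bp before the 5′ end of genes called in treated 4T1 libraries alone, Kcna3 and Kcnk12, which had the strongest peaks among those genes. Kcna3 lies at chr3:107036009-107036168 (+) and Kcnk12 at chr17:87797995-87798154 (−).
Kcna3: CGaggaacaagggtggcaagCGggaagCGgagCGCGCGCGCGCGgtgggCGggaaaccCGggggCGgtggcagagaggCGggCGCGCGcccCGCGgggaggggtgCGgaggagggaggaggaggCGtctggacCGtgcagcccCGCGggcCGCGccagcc
Kcnk12: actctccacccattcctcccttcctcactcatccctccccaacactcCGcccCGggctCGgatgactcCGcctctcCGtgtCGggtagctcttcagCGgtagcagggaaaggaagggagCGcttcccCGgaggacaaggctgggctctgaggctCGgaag
The Kcnab2 stretch, at chr4:152477241-152477400 (−) in an intron, is from a peak of B16F10 controls, since that promoter was open in all of B16F10 and in treated 4T1 alone. Kcnk5, at chr14:20181810-20181969 (−), was open in all 12 libraries, and Kcnn4, at chr7:24369909-24370068 (+), in all 4T1 and no B16F10 libraries.
Kcnab2: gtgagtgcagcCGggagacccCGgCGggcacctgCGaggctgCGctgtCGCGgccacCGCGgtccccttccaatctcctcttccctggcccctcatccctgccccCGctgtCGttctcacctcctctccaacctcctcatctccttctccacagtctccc
Kcnk5: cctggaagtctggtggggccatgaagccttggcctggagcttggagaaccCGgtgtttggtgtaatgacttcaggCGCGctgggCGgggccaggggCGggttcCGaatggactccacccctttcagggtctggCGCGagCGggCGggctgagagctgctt
Kcnn4: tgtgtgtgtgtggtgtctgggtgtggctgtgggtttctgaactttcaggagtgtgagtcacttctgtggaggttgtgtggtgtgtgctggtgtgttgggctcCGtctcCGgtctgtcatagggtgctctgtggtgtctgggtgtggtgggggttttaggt
The number of CpG in these 160 bp was 25 for Kcna3, 11 for Kcnab2, 10 for Kcnk12 and Kcnk5, and 2 for Kcnn4.

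The libraries held between 49622 and 118603 peaks on the assembled chromosomes. In 4T1 the treated lists were longer, with 112440 ± 5488 peaks against 92033 ± 2225 in controls (SD, n = 3 each), and in B16F10 they held 55540 ± 2536 against 52072 ± 2122. The lists hold no read counts, and the labels give only a minimum of sequencing depth, so that no counting interval could be set. The read density of the background was estimated from the fold enrichment and p-value of 3000 sampled peaks per library, as the most frequent solution. A solution was found for 64.4% to 75.4% of the sampled peaks in 4T1 libraries and for 81.5% to 87.9% in B16F10. Of the solved peaks, 49.7% to 58.4% in 4T1 and 32.9% to 40.2% in B16F10 lay at the value taken. This density was 5.89 ± 0.613 in treated 4T1 libraries and 4.19 ± 0.214 in their controls (SD, n = 3 each). It was 1.75 ± 0.219 in treated B16F10 libraries and 1.75 ± 0.0749 in their controls (SD, n = 3 each). Background density thus moved with treatment in 4T1 and with the line, and its part in the counts below was not tested beyond the values given beside them. Promoters of 6 of 7 melanocyte markers were open in all B16F10 libraries, Tyr being the one without a peak, and 2 of 7, Pmel and Mitf, in 4T1. All 7 mammary epithelial markers were open in all 4T1 libraries and 1 of 7, Elf3, in B16F10, and none of 4 leukocyte markers had a peak in any library. Of 4 neuron markers, Snap25 and Syn1 were open in all 4T1 libraries, and Rbfox3 went from 1 of 3 control to 3 of 3 treated libraries in 4T1 and from 0 of 3 to 3 of 3 in B16F10. Syp, the fourth, had a peak in 2 control and 1 treated 4T1 libraries and in none of B16F10. Of 4 fibroblast and endothelial markers, Col1a1 was open in all 12 libraries, Pdgfra and Cdh5 in none, and Pecam1 in 3 of 3 control and 1 of 3 treated 4T1 libraries.

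Many potassium channel promoters gained a peak in treated 4T1 cells and none did so in every treated B16F10 library. In the 3 control libraries of 4T1, 24, 25 and 22 members had a promoter peak, and in the 3 treated libraries 48, 48 and 47. The groups did not overlap, and the means were 23.7 ± 1.53 and 47.7 ± 0.577 members (SD, n = 3 each). Over all coding genes the share with a promoter peak was 56.4% ± 0.224 in control and 61.6% ± 0.625 in treated 4T1 libraries, while for the members it was 25.2% ± 1.63 and 50.7% ± 0.614. In B16F10 the counts were 7, 9 and 8 in controls and again 7, 9 and 8 after treatment, with 8.51% ± 1.06 of the members in each arm. All genes stood there at 49.6% ± 0.189 and 50.3% ± 0.433. The share of open potassium channel promoters was below that of all coding promoters in all 12 libraries, by the least in treated 4T1. A bulk library does not separate more cells with an open promoter from a more open promoter in each cell.

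**Figure D1:**
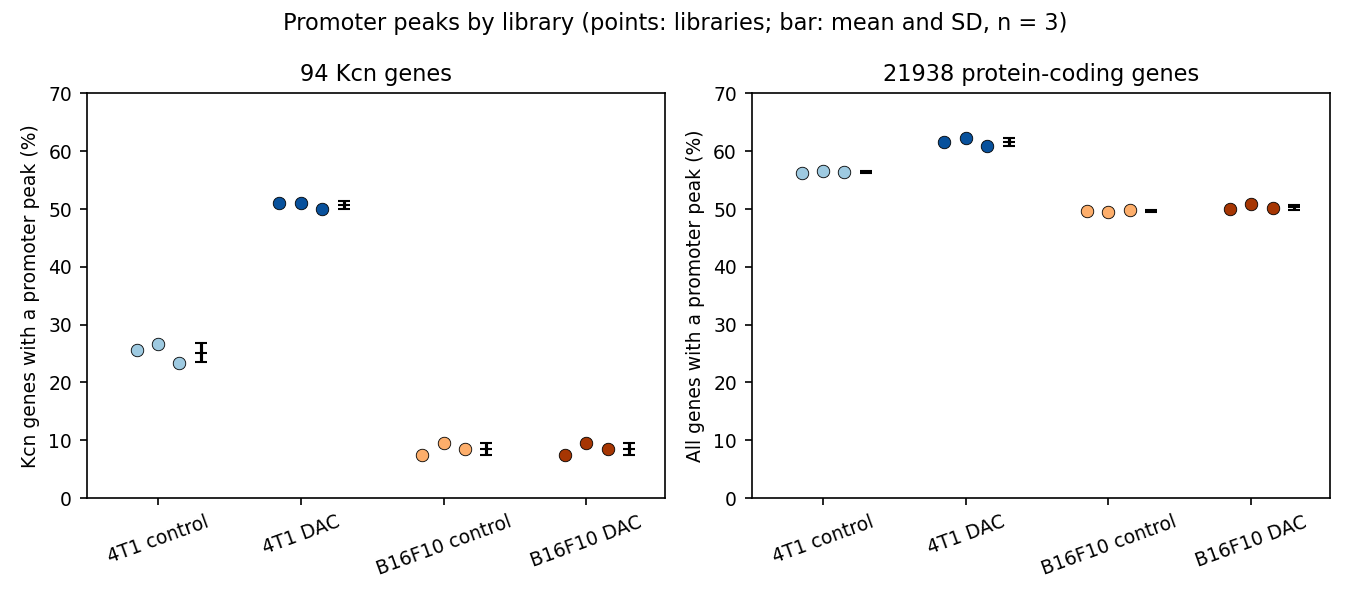
Share of promoters with a peak, in percent, for the 94 Kcn genes (left) and all 21938 coding genes (right). Each point is a library and the bars give mean and SD of 3; the mean Kcn share is 25.2% in control and 50.7% in treated 4T1 libraries, and 8.51% in both arms of B16F10.

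In 4T1, 19 of the 94 members (20.2%) met the rule for DAC libraries alone, against 4.22% of all coding genes (926 of 21938). A single member, Kcnh6 (1.06%), was called in control libraries alone, against 0.419% of all genes. Another 18 members were open in all 6 libraries, 36 in none, and 20 showed other patterns. Counted over genes lacking a peak in every 4T1 control, the shares were 19 of 67 members (28.4%) and 9.93% of all genes. In B16F10 no member was called in one arm alone, against 0.228% of all genes in DAC libraries alone and 0.0684% in control libraries alone. There, 6 members were open in all 6 libraries and 81 in none. Of the 94 members, 33 (35.1%) had no promoter peak in any of the 12 libraries, near the 32.3% of all genes, whereas 5 (5.32%) were open in all 12, against 45.8% of all genes.

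The peaks gained were mostly weak, and their number depended on how many weak peaks were counted. When each 4T1 library was held to its 89780 strongest peaks, 8 members (8.51%) had peaks in DAC libraries alone, against 2.22% of all genes, and 2 in control libraries alone, against 0.802%. With only peaks of a fold enrichment of at least 5, these counts were 3 (3.19%, against 1.14%) and 2 (2.13%, against 1.13%), and the mean number of open members was 17.3 ± 1.53 in control and 18 ± 2 in treated libraries (SD, n = 3 each). In the 3 treated libraries the median fold enrichment of the 19 was 3.92, 3.46 and 3.56, near that of all 926 such genes, at 4.14, 4.13 and 4.03. The members open in all 6 libraries had medians of 8.35, 8.64 and 8.47 in controls.

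No gene in the table passed an exact two-sided permutation test of the treatment labels over both lines after Benjamini-Hochberg adjustment over all 21938 genes, and 16 had an unadjusted p under 0.05. The lowest p of any member was 0.1, for 20 members, with an adjusted p of 1. Within a single line, 3 libraries against 3 cannot give less than 0.10, so that a gene that changed in one line alone could not pass. Over both lines the test cannot give less than 0.005. With 21938 genes adjusted, a very large number would have to reach that value before any passed. The calls below therefore describe which libraries held a peak, with no test for a single gene.

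**Figure D2:**
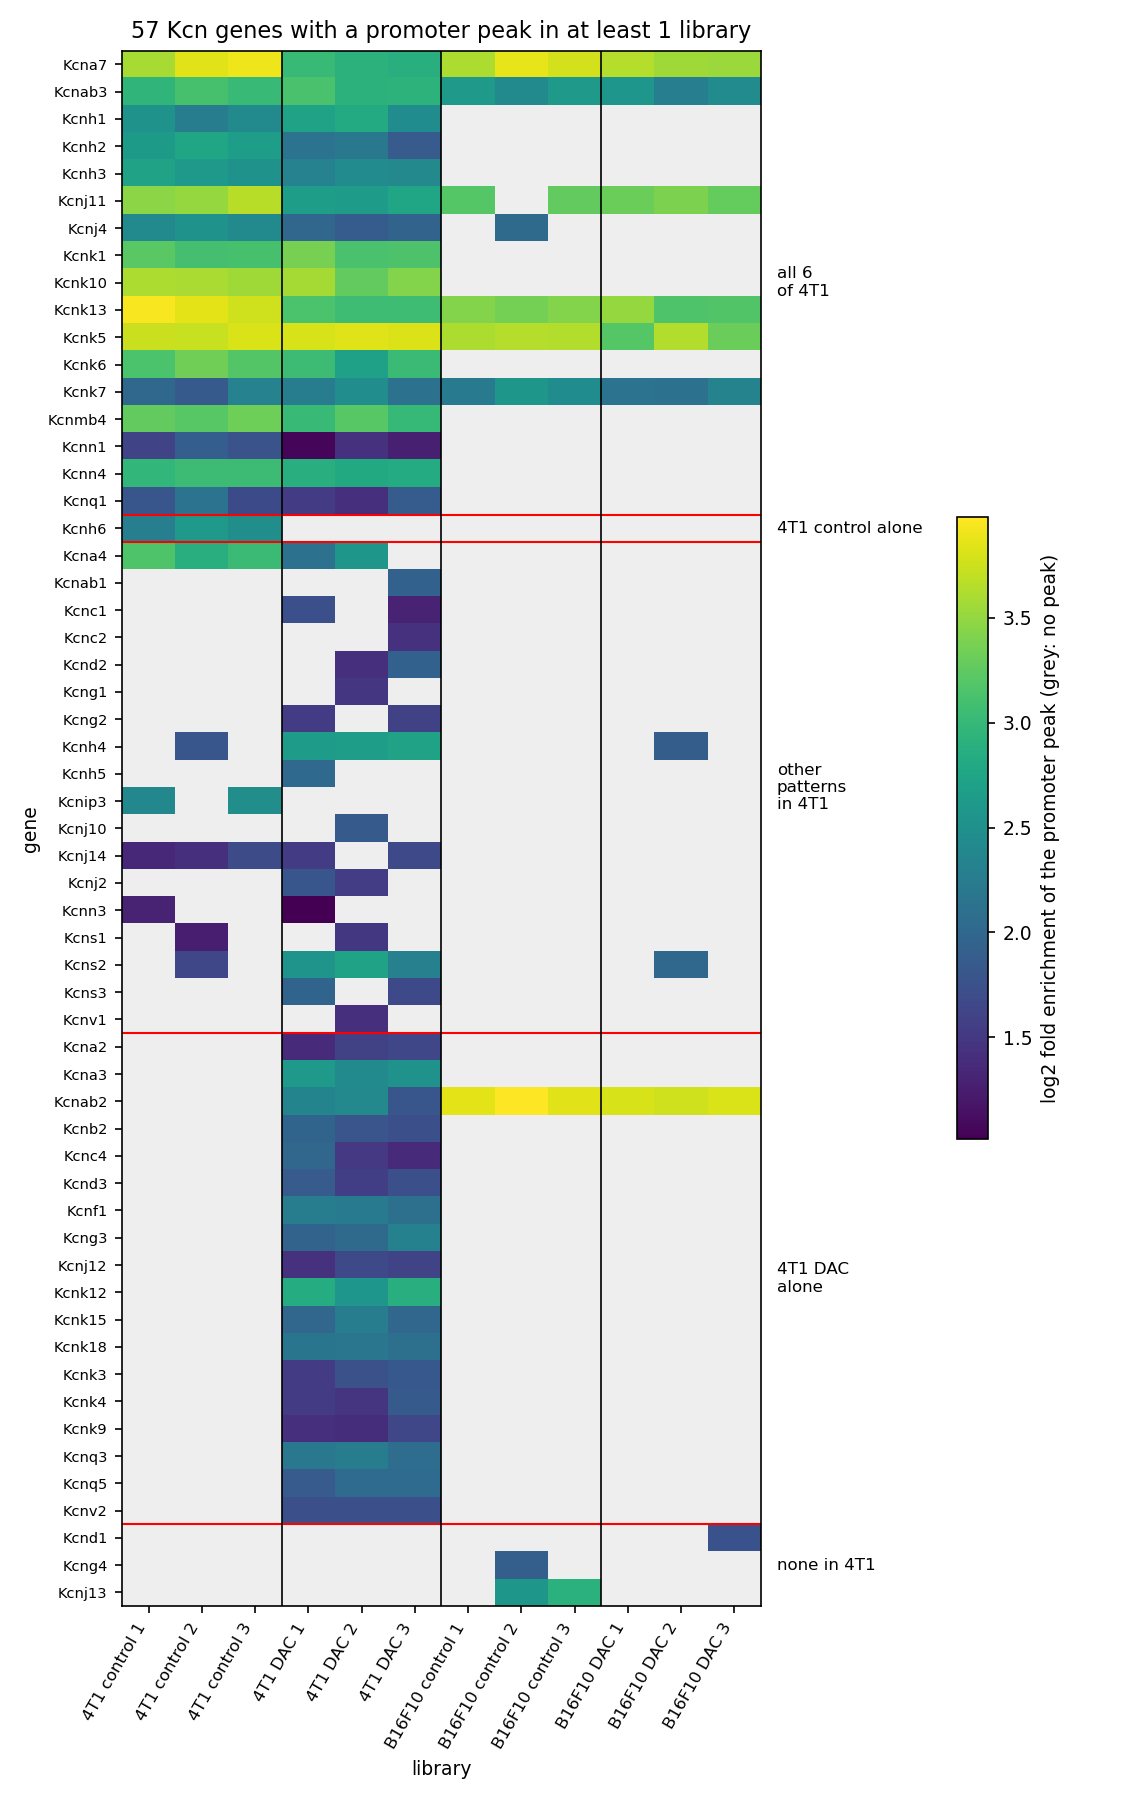
Log2 fold enrichment of the promoter peak of 57 Kcn genes (rows) with a peak in at least 1 of the 12 libraries (columns); grey marks no peak, and colours are comparable only within a column. Red lines part the patterns in 4T1, from 17 plotted genes open in all 6 libraries to 18 open in the DAC libraries alone.

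Voltage-gated channels gave 11 of the 19, out of 40 members of that class (27.5%). In the Shaker family, Kcna3, which encodes a channel known from T lymphocytes, had a fold enrichment of 6.09, 5.40 and 5.81 in the 3 treated 4T1 libraries and no peak in the controls. Its peaks spanned chr3:107035817-107037010, from −352 to 841 bp relative to the 5′ end, negative being upstream, and their lowest percentile was 40.5. Its neighbour Kcna2, which encodes a channel of axons, reached only 2.60, 3.03 and 3.13, with a lowest percentile of 3.06. These genes lie with Kcna10 within 146.9 kb of chromosome 3. Kcna10 had no peak in any library, and its promoter was in CpG quintile 1. In a second group of the family, within 205.3 kb of chromosome 6, Kcna5, Kcna1 and Kcna6 had no promoter peak in any of the 12 libraries.

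Kcnb2, which encodes a delayed rectifier of neurons, stood at 3.92, 3.46 and 3.34 in treated 4T1 libraries. Kcnf1, Kcng3 and Kcnv2 encode silent subunits, which form no channel alone and change the behaviour of other voltage-gated channels. Kcnf1 had fold enrichments of 4.79, 4.66 and 4.30, Kcng3 of 3.88, 4.10 and 4.97, and Kcnv2 of 3.34, 3.33 and 3.34. Each was without a peak in the 3 control libraries and in all of B16F10. Kcnc4, which encodes a fast channel, was at 3.98, 2.85 and 2.59, and Kcnd3, a subunit of the transient outward current of the heart, at 3.64, 2.94 and 3.32. The antisense gene Kcnd3os also starts in the Kcnd3 window, and a peak cannot be assigned to either gene. The same holds for non-coding genes that start in the windows of Kcnk3 (Gm9899, inside its peaks), Kcnq3 (Gm27242), Kcnmb4 (Kcnmb4os2) and Kcnn1 (A230052G05Rik).

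Kcnq3 and Kcnq5 encode subunits of the M current, which restrains the firing of neurons. Kcnq3 stood at 4.59, 4.81 and 4.197, over a span of 1844 bp that began 320 bp after the 5′ end. In the region merged over all 6 libraries, 2 control libraries had a peak as well, outside the promoter window. Kcnq5 stood at 3.63, 4.13 and 4.14. Kcnq1, which encodes a channel of heart and epithelia, was open in all 6 libraries with values of 3.51, 4.42 and 3.19 in controls and 2.90, 2.67 and 3.66 after treatment.

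Two-pore channels contributed 6 of 14 members (42.9%). Kcnk12, of the halothane-inhibited group, had the strongest promoter peak of the 19, with fold enrichments of 7.20, 5.94 and 7.30 and a lowest percentile of 55.8. Its peaks covered 2135 bp, chr17:87796787-87798921, on both sides of the 5′ end. The acid-sensitive group of the class gave 3 members. Kcnk3 stood at 2.91, 3.36 and 3.56, Kcnk9 at 2.66, 2.65 and 3.13, and Kcnk15, whose product makes no current alone, at 3.99, 4.81 and 3.98. Kcnk4, a mechanosensitive channel, stood at 2.91, 2.75 and 3.598. Kcnk18, a leak channel of sensory neurons, stood at 4.50, 4.53 and 4.30. Of the other 8 members of the class, 6 were open in all 6 libraries (Kcnk1, Kcnk5, Kcnk6, Kcnk7, Kcnk10 and Kcnk13). Kcnk2 and Kcnk16 had no promoter peak in 4T1. At another annotated start Kcnk2 had a peak in 3 of 3 libraries of each group of both lines. No two-pore member was called in only part of a group.

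The remaining classes gave 2 of the 19. Among 15 inward rectifiers (6.67%), Kcnj12, which encodes a strong rectifier of heart and muscle, stood at 2.71, 3.18 and 3.08, and 9 members had no peak in 4T1. Among 17 auxiliary genes (5.88%), Kcnab2, a cytoplasmic beta subunit of Shaker channels, stood at 5.08, 5.33 and 3.50, and 12 had none. All 5 Kcne genes, which encode small single-pass subunits, were without a promoter peak in 4T1. At another annotated start Kcne3 had a peak in 3 of 3 control and 3 of 3 treated 4T1 libraries. Of the 8 ligand-activated members none was called in DAC libraries alone, Kcnn1 and Kcnn4 were open in all 6 libraries, and 5 had no peak. Classes differed in CpG density too. Quintiles 4 and 5 held 26 of the 40 voltage-gated members, 8 of 14 two-pore, 4 of 17 auxiliary, 3 of 15 inward rectifier and 2 of 8 ligand-activated members. No test between classes was made.

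**Figure D3:**
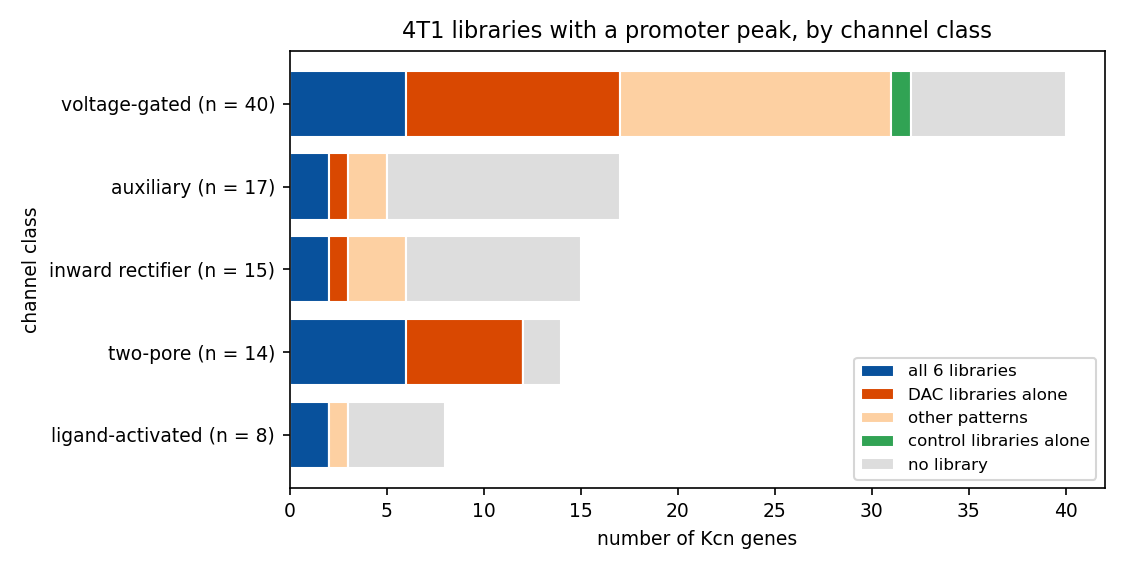
Number of Kcn genes of each channel class by the 4T1 libraries that held a promoter peak. DAC libraries alone make up 11 of 40 voltage-gated and 6 of 14 two-pore genes, and 1, 1 and 0 of the auxiliary, inward rectifier and ligand-activated genes.

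Of the 8 Kcnh genes none was called in DAC libraries alone. Kcnh1, the ether-à-go-go channel, stood at 5.75, 4.82 and 5.36 in controls and 6.59, 7.12 and 5.47 after treatment, and Kcnh2, which carries a repolarising current of the heart, at 6.18, 6.84 and 6.39 and at 4.41, 4.60 and 3.64. Both were open in all 6 libraries. The percentiles of Kcnh1 lay between 46.2 and 52.4 in controls and between 61.5 and 73.7 after treatment. Those of Kcnh2 lay between 41.6 and 48.8 and between 34.5 and 52.2, which overlap. Kcnh6, of the same subfamily as Kcnh2, was the member open in controls alone, at 4.87, 6.08 and 5.59. Its peaks spanned 262 bp, chr11:106007924-106008185, with a CpG density of 9.16 per 100 bp, though the whole promoter lay in quintile 2. Kcnh4 missed the rule by 1 control library, with 3.51 in control replicate 2 and 6.22, 6.36 and 6.59 in the treated libraries. Kcns2, a silent subunit, did likewise, with 3.13 in the same control and 5.86, 6.59 and 4.93. Just below the rule on the treated side, Kcnc1, Kcnd2, Kcng2, Kcnj2 and Kcns3 had a promoter peak in 2 treated libraries and no control. With every annotated start counted, Kcnc1 had a peak in 2 control libraries of 4T1.

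The members called in treated 4T1 libraries alone had promoters dense in CpG. The median was 6.90 CpG per 100 bp for the 19 (range 2.30 to 11.1), 4.47 for members open in all 6 4T1 libraries and 1.85 for members open in none. All 94 members had a median of 3.45 and all coding genes 3.05, while all 926 genes called in DAC libraries alone had 4.75. In quintile 5, 12 of 20 members (60%) had this call, against 8.75% of all its genes. This count was 4 with equal peak numbers and 2 with a fold enrichment of at least 5. The share of all quintile 5 genes was not counted under these settings, so that the falls are not set against other genes. Counted over promoters without a peak in the 3 controls, with all peaks used, it was 12 of 15 members (80%) and 66.4% of all genes. In quintile 4 the count was 4 of 12 (33.3%, against 36.7%) and in quintile 3 it was 3 of 19 (15.8%, against 14.9%). Quintile 2 gave 0 of 14 (against 3.88%) and quintile 1 gave 0 of 7 (against 1.09%). In each of the 4 lower quintiles, the count of members was within 1 of the number that the share of all genes gives. Split by CpG island content (CpG observed to expected above 0.6 and GC above 50%), the counts were 14 of 17 island-like members (82.4%, against 62.3%) and 5 of 50 others (10%, against 5.25%).

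The members differed more from other genes in the control libraries. In CpG quintile 5, 86.2% of all genes but 25% of members, 5 of 20, were open in 3 of 3 control libraries of 4T1. In treated libraries the shares were 95.05% and 85%. Quintile 4 gave 85.4% of genes and 34.8% of members in controls, and 90.7% and 65.2% after treatment. In B16F10 controls, 79.1% of genes and 5% of members of quintile 5 were open, and 79.2% and 5% after treatment. Among the members of quintile 5 that were not open in all treated 4T1 libraries, Kcnc1 and Kcnd2 each had a peak in 2. In quintile 4, Kcna6, Kcnip4 and Kcnt1 had no promoter peak in any treated 4T1 library. At another annotated start Kcnip4 had a peak in 3 treated and 1 control libraries of 4T1.

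**Figure D4:**
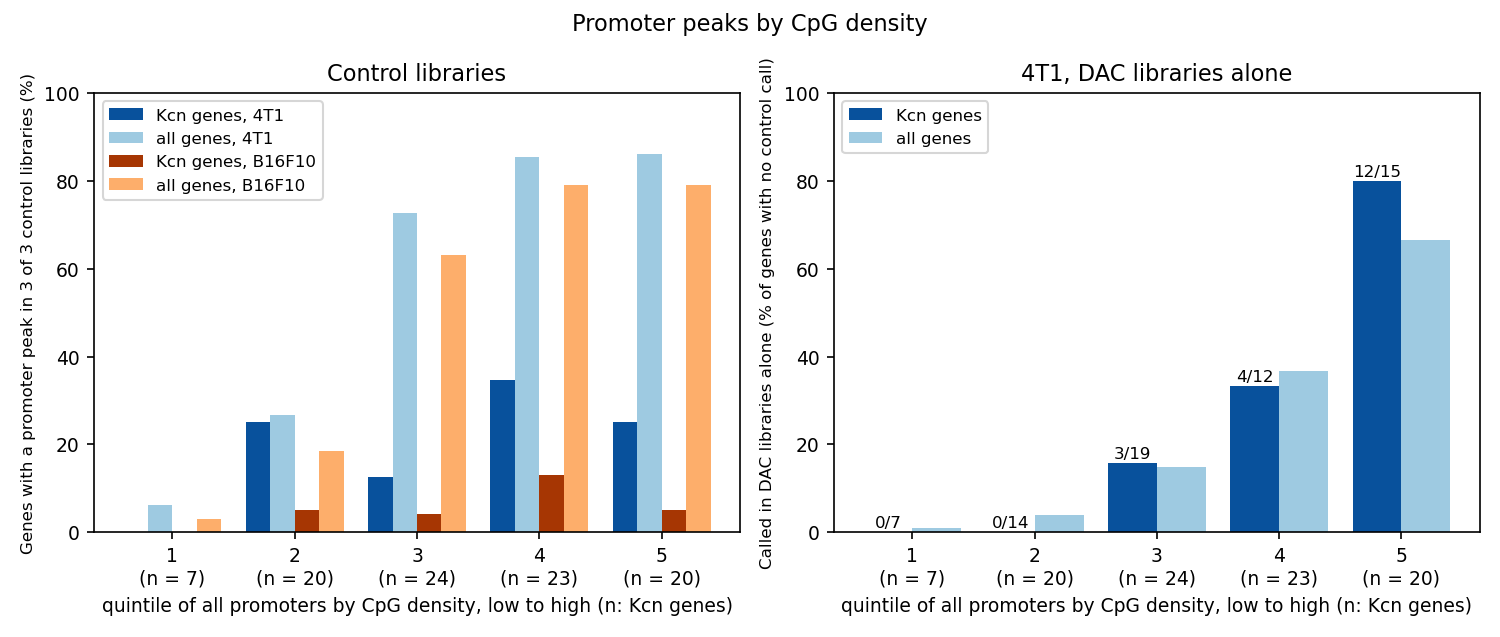
Left, percent of Kcn and of all genes with a promoter peak in 3 of 3 control libraries, by CpG quintile of all promoters. Right, percent called in 4T1 DAC libraries alone among genes with no 4T1 control peak, with counts over the Kcn bars: 80% of Kcn and 66.4% of all genes in quintile 5.

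The peaks gained lay beside the 5′ end more often than on it. The 3 treated peaks all covered the 5′ end in 4 of the 19 genes, Kcna3, Kcnk12 and Kcnk15 among them, compared with 14 of the 18 members open in all 6 libraries. The summit of the peak of highest percentile lay between −637 bp (Kcnj12) and 812 bp (Kcnq3) from the 5′ end. It was downstream in 12 genes and upstream in 7. Peaks were narrower, with a median width of 415 bp against 732 bp. All peaks of the treated 4T1 lists had median widths near the former, at 435, 414 and 427 bp. Position and width were not counted over all genes called in DAC libraries alone. The spans of the 19 had a median of 9.06 CpG per 100 bp, from 1.53 in Kcnk18 to 12.8 in Kcng3, and 17 of 19 were island-like. Kcnk18 and Kcnq3 were the exceptions. Repeat sequence made up a median of 4.95% and at most 14.6% of these spans. The members open in all 6 libraries had a median of 5.72 CpG per 100 bp in their spans, 10 of 18 being island-like.

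**Figure D5:**
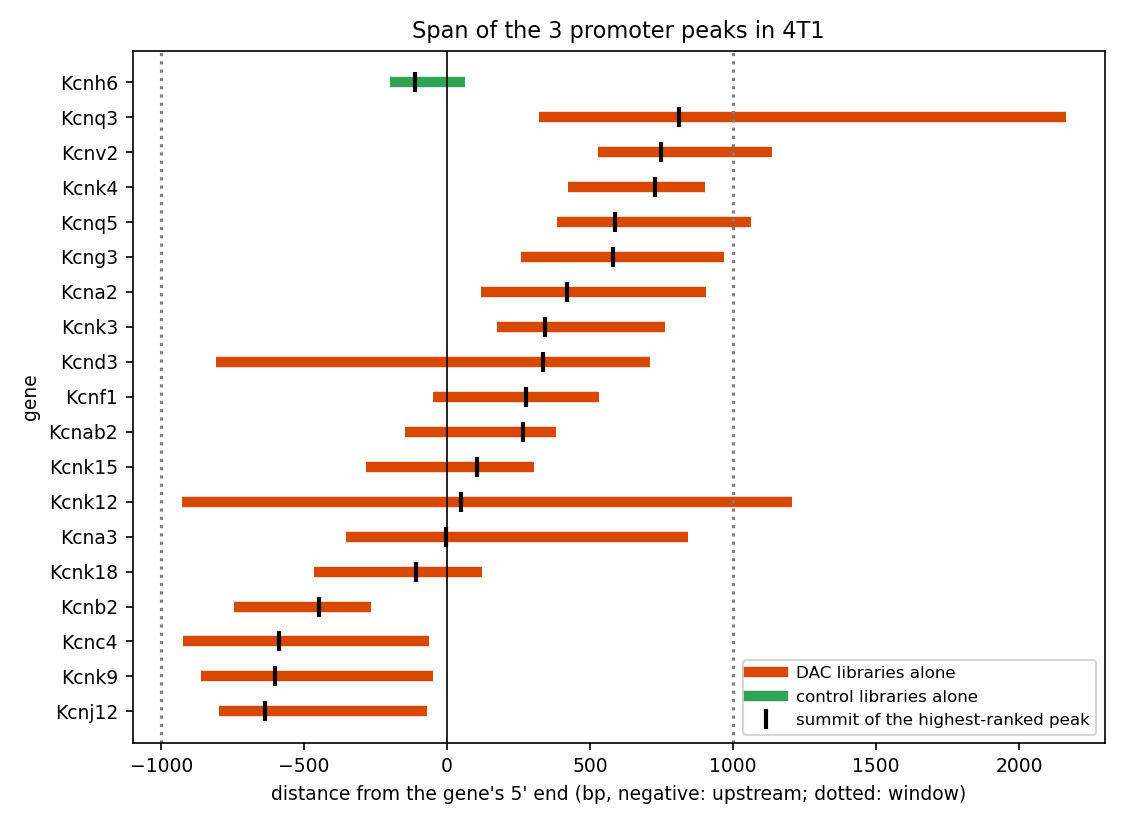
Span of the 3 promoter peaks of genes called in one arm alone in 4T1, by distance from the 5′ end in bp, with the summit of the highest-ranked peak as a black tick. Of the 18 plotted genes in orange (DAC libraries alone), 12 have that summit downstream and 6 upstream; Kcnh6, in green (control libraries alone), spans 262 bp.

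Other starts of the same genes were looked at for hidden control peaks. In 17 of the 19, no control library had a peak at any annotated transcript start. Of these, Kcnk12, Kcna3, Kcng3, Kcnf1, Kcnk18, Kcnk9, Kcnv2 and Kcnc4 have no other annotated start. For them the check repeats the promoter rule and could not show a hidden control peak. Kcnab2 had 3 control libraries with a peak at another of its 12 starts, and Kcnd3 had 1. The most upstream start of Kcnab2, which is the one used here, was open in all B16F10 libraries, with fold enrichments of 14.5, 15.8 and 14.3 in controls and 13.9, 13.6 and 14.1 after treatment and a lowest control percentile of 90.9. The other 18 had no promoter peak in any B16F10 library, compared with 765 of the 926 genes (82.6%) with the same 4T1 pattern.

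In the control libraries, 14 members (14.9%) were open in 3 of 3 of 4T1 and 0 of 3 of B16F10, against 8.03% of all genes, and Kcnab2 (1.06%) was the reverse, against 1.94%. With an equal number of peaks in all 12 libraries the counts were 6 (6.38%, against 5.54%) and 2 (2.13%, against 3.13%), near the share of all genes. Among the 6 that remained were Kcnn4, Kcnk1, Kcnk10, Kcnmb4 and Kcnk6. Kcnn4, the calcium-activated channel of epithelia and blood cells, had a mean fold enrichment of 8.12 ± 0.231 (SD, n = 3) and a lowest percentile of 89.3. Its promoter is poor in CpG (1.65 per 100 bp), and its treated libraries stood at 7.37, 7.06 and 7.16. The leak channels Kcnk1, Kcnk10 and Kcnk6 had means of 8.86 ± 0.382, 12.1 ± 0.263 and 9.36 ± 0.682, and Kcnmb4, a beta subunit of the large calcium-activated channel, 9.63 ± 0.361 (SD, n = 3 each). Next in rank came Kcnh1, Kcnh3, Kcnh2, Kcnn1, Kcna4 and Kcnh6, with lowest percentiles between 15.4 and 46.2. None of these 6 kept the call with equal peak numbers.

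Members open in all 12 libraries were Kcna7, Kcnab3, Kcnk13, Kcnk5 and Kcnk7. Kcnk5, an alkaline-activated leak channel of epithelia, stood at 13.4, 13.3 and 14.1 in 4T1 controls and 14.0, 14.3 and 14.1 after treatment, and in B16F10 at 12.2, 12.6 and 12.4 and at 9.20, 12.5 and 9.94. Kcnk13 was at 15.5, 14.5 and 13.6 in 4T1 controls and 8.80, 8.34 and 8.33 in treated libraries, and Kcna7, a Shaker channel of muscle, at 12.005, 14.4 and 15.01 and at 8.05, 7.54 and 7.32. In both genes the fold enrichment was lower in every treated 4T1 library. As a rank within its own list, Kcnk13 lay between the percentiles 70.5 and 72.2 in controls and 76.2 and 77.8 after treatment, the opposite direction, and Kcna7 between 63.1 and 72.7 and between 59.7 and 65.7, which overlap. Kcnab3, a beta subunit, was at 7.78, 8.67 and 8.10 and at 8.72, 7.55 and 7.62 in 4T1, and at 6.13, 5.39 and 6.10 and at 5.95, 4.88 and 5.46 in B16F10. Kcnk7, a member that forms no known current, was at 4.01, 3.61 and 5.04 and at 4.81, 5.53 and 4.39 in 4T1, and at 4.73, 6.005 and 5.505 and at 4.42, 4.35 and 5.05 in B16F10.

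Kcnj11, Kcna5 and Kcnma1 showed other patterns. Kcnj11, the pore of the ATP-sensitive channel of the pancreatic beta cell, was open in all 4T1 libraries, at 11.0, 11.4 and 12.7 in controls and 6.38, 6.23 and 6.82 after treatment. As a rank it lay between the percentiles 52.2 and 59.0 in controls and 56.3 and 57.7 after treatment, which overlap. In B16F10 Kcnj11 had a peak in 2 control libraries, at 9.14 and 9.66, and in all 3 treated ones, at 9.94, 10.5 and 9.71. Its partner Abcc8 had a promoter peak in 2 treated 4T1 libraries only. Kcna5, a channel of atrial muscle, and Kcnma1, the pore of the large calcium-activated channel, had no promoter peak in any library. Besides Kcnh6, the members with fewer treated than control libraries in 4T1 were Kcna4 and Kcnj14, with 3 control and 2 treated libraries, and Kcnip3, with 2 and 0. In B16F10, Kcnj13 had 2 control and 0 treated libraries, and Kcng4 and Kcnj4 had 1 and 0. Kcnd1, Kcnh4 and Kcns2 each had a peak in 1 treated B16F10 library and no control there.

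Genes of other ion channel families and partner genes were counted in the same way. Of 80 genes for sodium, calcium, chloride, cyclic-nucleotide-gated pacemaker and TRP channels, 9 (11.25%) met the rule for DAC libraries alone in 4T1 and 0 in control libraries alone, against 4.22% and 0.419% of all genes. Among them were the sodium channel genes Scn3b and Scn8a, the calcium channel genes Cacna1b, Cacna1h, Cacna2d1 and Cacna2d3, and Trpm3. The number open in 3 of 3 libraries went from 26 to 35 in 4T1 and from 22 to 21 in B16F10. Of 12 genes for proteins that assemble with or act on potassium channels, none was called in one arm alone in either line, and 4 were open in all 4T1 libraries: Amigo1, Vamp2, Stx1a and Tmem175.

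Peaks inside the genes, away from any coding promoter window, were counted as a readout that the promoter calls do not use. Peaks of the 6 libraries of a line that overlapped by at least 1 bp were merged into regions. In 4T1, 72 of 491 such regions in members (14.7%) were open in DAC libraries alone, against 12.5% of all regions outside promoters, and 21 (4.28%) in control libraries alone, against 3.86%. In B16F10 the counts were 6 of 200 (3%, against 2.53%) and 2 (1%, against 0.991%). The shares in members were near those of all regions. The balance between the arms of 4T1 did not hold under other settings, with 39 regions open in treated libraries only and 38 in control libraries only for equal peak numbers, and 27 and 32 for a fold enrichment of at least 5. In B16F10 the 6 became 10 without treated replicate 1, and the 2 became 8 without control replicate 2 or without control replicate 3. Leaving out a library loosens the rule, so that these counts could only stay or rise. The 72 regions lay in 40 members. Of them 29 (40.3%) were mostly repeat sequence, 33 (45.8%) were island-like and 23 overlapped an exon, with a median of 4.23 CpG per 100 bp. None of the 21 regions called in controls alone was island-like or mostly repeat, with a median of 1.20 CpG per 100 bp. Among the 162 regions open in all 6 libraries, 3.70% were island-like and 3.09% mostly repeat. Neither this make-up nor the counts under other settings were taken over all regions outside promoters. They are therefore not shown to be particular to potassium channel genes.

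Kcnu1, a pH-gated channel of sperm, held 7 regions called in treated 4T1 libraries alone. Kcnq3 held 6, Kcnn2 5, Kcnip4 4 and Kcnk12 3, as many as Kcnk2 and Kcns3. These genes differ in length. Per 100 kb of gene the values were 7.93 for Kcnu1, 2.00 for Kcnq3, 1.20 for Kcnn2, 0.352 for Kcnip4 and 5.75 for Kcnk12. The highest was 16.7 for the short gene Kcna1, which held 1 region. All 4 in Kcnip4, an intracellular regulator of Kcnd channels, lay wholly in repeat sequence, as did 4 of the 5 in Kcnn2 and all 3 in Kcns3. In Kcnk12 the region of highest rank, chr17:87745875-87746868, overlapped an exon, held 11.1 CpG per 100 bp and no repeat, and had a lowest percentile of 60.3. Kcnma1 and Kcna1 had no promoter peak but a region of this kind further in. With every annotated transcript start counted, both were called in 3 treated and 0 control libraries of 4T1. In Kcnma1 it lay at chr14:24004011-24005085, 9943 bp from the 5′ end, overlapping an exon, with 12.7 CpG per 100 bp and a lowest percentile of 11.4. In Kcna1 it lay 1883 bp from the 5′ end, at chr6:126644278-126644724, with 8.28 CpG per 100 bp and a lowest percentile of 2.11. In B16F10 the regions called in DAC libraries alone lay in Kcnq5 (2), Kcnb2, Kcne3, Kcnj12 and Kcnq1, and those in controls alone in Kcnh7 and Kcnn3.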

How the data were processed

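The data were 12 ATAC-seq peak lists, 1 per library, per the labels, which tie each deposited list to a single sample. Per the submitters' processing notes the build was mm10, and MACS2, Bowtie2, Picard, ChIPseeker, DiffBind, FastQC and MultiQC were used, with no version or option given. The fold enrichment is the authors' ratio of a peak's summit to local background. The deposited score and the deposited −log10 values of p and q rank peaks within a list and grow with depth. Every list ended at a q of 0.05.

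Distinct intervals on 21 assembled chromosomes were kept with Python 3.11.15, pandas 2.3.3, numpy 2.4.6 and pysam 0.24.0. Genes came from GENCODE M21 and sequence from GRCm38. Background density was solved from fold enrichment and −log10 p-value with p taken from a Poisson distribution and a pseudocount of 1 in the ratio. Promoter calls, permutation p-values and this solution were tested on simulated data. The alternatives tried were a −log10 q of at least 5, a fold enrichment of at least 5, equal peak numbers, an overlap of 100 bp, the summit inside the window, windows of 500 and 2000 bp, every transcript start, 2 of 3 libraries, and leaving out each library.

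The members, lists and tests were chosen with earlier results of these data known. Genes named with values are members called in one arm or one line alone, up to 12 per direction between lines, members open in all 12 libraries, 9 listed members, and up to 5 genes per line for regions inside genes. Values of Kcnh4, Kcns2, Kcns3, Kcna1, Kcna4, Kcnip3, Kcnj13, Kcnj14 and the members with 1 or 2 libraries were chosen after they were seen. A few genes are included in the counts but are not reported here by name or plotted.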

Additional observations from a re-analysis of the deposited data

How the results depend on the processing

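Of the comparisons between arms or lines, 150 alternative values were classed as moving little and 36 as moving more. The 150 include falls with a −log10 q of at least 5. There, members called in 4T1 DAC libraries alone went from 19 to 14, and those in CpG quintile 5 from 12 to 9. Regions inside genes so called went from 72 to 52. The 150 also include the number of genes passing the permutation test, which stayed at 0. They include counts without single libraries too. Leaving out a library loosens the rule, so that counts of calls in one arm or one line alone cannot fall. The mean excess of open members in treated 4T1 libraries (24 per library) was 19.3 with a −log10 q of at least 5, 0.667 with a fold enrichment of at least 5, 10.3 with equal peak numbers, 22 with windows of 500 bp and 27 with every transcript start, and 23.2 to 24.7 without single libraries. In B16F10 (0) it was −1 with the fold enrichment limit, −1 with equal peaks and −1.67 with windows of 2000 bp. Members called in DAC libraries alone in 4T1 (19) were 3 with the fold enrichment limit and 8 with equal peaks, in the highest CpG quintile (12) 2 and 4, and in controls alone (1) 2 and 2. Without single libraries these counts, which could not fall, were 19 to 22, 12 to 13 and 1 to 2. Kcnh6 stayed the lone control call except without control replicate 2. With 2 of 3 libraries enough, controls alone gave 2 in 4T1 and 1 in B16F10 (0 by the main rule), which was also 0 to 1 without single libraries, 1 being without control replicate 1. DAC libraries alone in B16F10 gave 1 with windows of 2000 bp. Members open in 4T1 and not in B16F10 controls (14) were 6 with equal peaks, and the reverse (1) was 2 with equal peaks, with windows of 2000 bp and with 2 of 3 libraries, and 1 to 2 without single libraries.

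Regions inside genes called in DAC libraries alone in 4T1 (72) were 27 with the fold enrichment limit and 39 with equal peaks, and in controls alone (21) 32 and 38. In B16F10 those in DAC libraries alone (6) were 3 with the q limit and 2 with the fold enrichment limit, and those in controls alone (2) were 1, 0 and, with equal peaks, 4. Without single libraries these were 6 to 10, 10 being without treated replicate 1, and 2 to 8, 8 being without control replicate 2 or 3. Here too the looser rule allows no fall. Why these libraries gave the largest rises was not tested. Of the 19 members, 13 kept the call with the q limit, 2 (Kcna3 and Kcnk12) with the fold enrichment limit, 7 with equal peaks, 16 with windows of 500 bp, 16 with windows of 2000 bp, 17 with every start, and all 19 with an overlap of 100 bp or the summit inside the window. Kcna3 and Kcnk12 kept it in all 8.

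With the replicate number as a block, 0 of 21938 genes passed the exact permutation test after adjustment, as without it, and 6 against 16 had an unadjusted p under 0.05. The smallest p that this test can give is 0.03125 with the block and 0.005 without it. With so many genes adjusted, neither form could pass any gene unless a very large number of genes reached its smallest p. Equal counts of passing genes therefore say nothing about the block. No pairing by replicate number was seen, and the labels do not say what the numbers share. Correlations of same-numbered control and treated libraries lay between −0.0692 and 0.0406, and those of differently numbered ones between −0.0476 and 0.0715. Depth is known only as a background density, so that a promoter without a peak is not shown to be closed.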

Other observations

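Short motifs were searched, on either strand, within a window of 200 bp centred on the summit of the highest-ranked promoter peak. The GC box (GGGCGG), which Sp-family factors bind, was found in 9 of the 19 members called in treated 4T1 libraries alone (47.4%), among them Kcna3, Kcnb2, Kcnc4 and Kcnk3. Of all 926 genes so called, 39.1% held it, and 12 of the 18 members (66.7%) and 58.1% of the 11925 genes open in all 6 4T1 libraries did. The CCAAT box was found in Kcnab2 alone of the 19 (5.26%), against 20.8% of the 926 genes, 22.2% of the members open in all 6 libraries and 32.7% of the genes open in all 6. The cyclic AMP response element (TGACGTCA) was found in Kcnf1 alone (5.26%), against 2.05% of the 926 genes and 3.01% of the genes open in all 6 libraries.

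None of the 19 held the NRF1, E-box (CACGTG), ETS (CCGGAAG) or AP-1 (TGANTCA) letters in this window, against 3.13%, 6.91%, 6.05% and 7.13% of the 926 genes. The letters of left and right partial sites of REST, a repressor of neuronal genes, were also absent in the 19 (TTCAGCACC, against 0.972%, and GGACAGC, against 9.18%). Of the 18 members open in all 6 libraries, 1 held the AP-1 letters, which the Kcnn4 sequence printed above contains. No motif was compared by a test.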
